A study of Mus musculus with 6 samples.

Results

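Arterial and venous endothelium of the mouse lung after birth were compared within the same libraries. The cells were those that the authors' deposited annotation calls Arterial and Venous, 2938 of the 55882 annotated cells. Lungs came from wild-type (WT) C57BL/6N mice, and all groups shared this genotype and strain. Each library was a pool of lung tissue from 3 mice, made into a suspension of cells and read as unique molecular identifiers (UMIs, counts of captured RNA molecules). The 6 libraries were female room air and male room air at postnatal day (PND) 1, and female room air, male room air, female hyperoxia and male hyperoxia at PND 21. Room air held 21% oxygen. Hyperoxia was 95% oxygen from PND 1 to PND 5 followed by room air until PND 21. There was 1 library for each combination of age, sex and exposure, so the paired comparison runs over 6 libraries of differing condition and not over replicates of 1 condition.

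Lung arteries carry blood from the right heart to the alveolar capillaries and veins return it to the left heart. Their endothelial cells take on separate identities during development. Notch signalling, through the ligand Dll4 and the Hey transcription factors, and Sox factors favour the arterial programme, and Nr2f2 (COUP-TFII), an orphan nuclear receptor, favours the venous one. Ephrin-B2 on arterial cells and its receptor EphB4 on venous cells keep the 2 populations apart. The venules of most tissues are the main site of leukocyte entry, and lung endothelium also clears monoamines and prostaglandins from the blood.

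The upstream sequences of 4 genes are given because these genes are among the 15 largest recurring differences of their side and separate the classes in every library: Cxcl12, a chemokine, and Gja5, the gap junction protein connexin 40, in Arterial, and Nr2f2 and Ptgs1, cyclooxygenase 1, in Venous. Each is the 250 bases before the RefSeq start site (GRCm38.p6), 5′ to 3′ on the gene's own strand. Capitals mark any match on either strand to TGGGAA (the core recognised by RBPJ, the DNA-binding partner of Notch), ACAANG (Sox factors), CACCC (Klf factors) or AGGTCA (a motif of nuclear receptors).
Cxcl12, chr6:117168285-117168534, plus strand: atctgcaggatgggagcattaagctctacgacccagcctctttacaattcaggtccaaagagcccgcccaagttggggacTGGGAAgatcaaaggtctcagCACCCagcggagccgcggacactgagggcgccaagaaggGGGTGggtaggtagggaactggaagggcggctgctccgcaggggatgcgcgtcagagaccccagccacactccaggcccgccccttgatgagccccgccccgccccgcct
Gja5, chr3:97032152-97032401, plus strand: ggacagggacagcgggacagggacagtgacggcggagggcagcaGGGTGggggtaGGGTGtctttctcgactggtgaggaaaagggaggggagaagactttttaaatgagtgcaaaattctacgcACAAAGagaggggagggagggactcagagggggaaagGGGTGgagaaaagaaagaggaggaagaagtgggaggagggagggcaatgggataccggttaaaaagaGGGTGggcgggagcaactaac
Nr2f2, chr7:70366747-70366996, minus strand: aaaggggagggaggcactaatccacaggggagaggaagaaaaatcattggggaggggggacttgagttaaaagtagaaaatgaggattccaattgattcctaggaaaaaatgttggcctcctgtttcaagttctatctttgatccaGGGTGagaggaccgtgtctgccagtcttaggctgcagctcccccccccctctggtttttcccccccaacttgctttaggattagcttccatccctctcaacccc
Ptgs1, chr2:36230176-36230425, plus strand: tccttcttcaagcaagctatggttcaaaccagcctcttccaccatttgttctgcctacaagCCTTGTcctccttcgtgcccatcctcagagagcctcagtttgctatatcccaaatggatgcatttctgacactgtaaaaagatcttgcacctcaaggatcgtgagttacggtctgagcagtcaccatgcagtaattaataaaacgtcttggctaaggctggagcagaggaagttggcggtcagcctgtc
The Cxcl12 window held an RBPJ match starting 170 bases before the start site, and the Gja5 window a Sox match starting 125 bases before it. The window of the venous gene Ptgs1 also held a Sox match, starting 189 bases before the start site. CACCC matches lay in the Cxcl12 and Gja5 windows and were the only matches in that of Nr2f2. Over all 32851 RefSeq promoters, counted from 250 bases before to 50 bases after the start, 25.6% held TGGGAA, 41.2% ACAANG, 57.5% CACCC and 16.3% AGGTCA, and over the promoters of all genes tested 22.5%, 32.7%, 62.9% and 12.0038%. Among the promoters of the genes higher in Arterial the shares were 23.4%, 33.1%, 67.0% and 12.5%, and among those of the genes higher in Venous 22.6%, 29.9%, 68.5% and 13.2%. Of the 15 largest differences of each side, only 11 arterial and 7 venous genes were matched to promoters, some with several starts. Among these promoters TGGGAA was held by 6 of 12 arterial and 3 of 15 venous ones, and ACAANG by 2 of 12 and 7 of 15. The genes were chosen for those differences. A match says only that these letters occur in the window.

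The Arterial class held 406 and 395 cells in the female and male day 1 libraries, 342 (female) and 275 (male) in room air at day 21, and 378 and 505 after hyperoxia. In the same order the Venous class held 165, 153, 70, 54, 83 and 112 cells. Arterial cells made up 71.1% (95% exact binomial interval 67.2 to 74.8) and 72.1% (68.1 to 75.8) of the 2 classes at day 1. At day 21 they made up 83.0% (79.0 to 86.5) and 83.6% (79.1 to 87.4) in room air and 82.0% (78.2 to 85.4) and 81.8% (78.6 to 84.8) after hyperoxia. These intervals cover counting error only, and dissociation can set such shares. Both day 1 shares lay below all 4 shares at day 21, also with the cells carrying lymphatic markers that are described below left out (73.0% and 74.5% at day 1). A venous cell had more UMIs than an arterial one: the medians ran from 8865 to 10193 in Venous and from 5701 to 8687 in Arterial, a mean fold of 1.36 over the libraries, with Venous deeper in 6 of 6 (exact sign-flip permutation test, two-sided, p = 0.03125, the smallest that 6 pairs can give). All levels below are therefore given as CPM, in which a gene's UMIs are scaled to the class's own sum. The sums held 2348956 to 3943133 UMIs in Arterial and 585272 to 1750449 in Venous.

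The labels were checked against marker lists. The summed level of 12 arterial markers was 7910 to 9862 CPM in Arterial and 1302 to 1599 CPM in Venous. The summed level of 12 venous markers was 580 to 1121 CPM in Arterial and 3110 to 11270 CPM in Venous. Neither pair of ranges overlapped. Cxcl12 alone gave 3403 to 4457 CPM of the arterial sum in Arterial. In the comparison of the classes described below, 9 of the 11 arterial markers tested were higher in Arterial and 1, Fbln5, in Venous. Htra1 differed in neither direction, and all 12 venous markers were higher in Venous. Of all genes tested, 11.2% were higher in Arterial and 12.7% in Venous. The authors formed the classes from the expression of these cells, so this check is not independent. Endothelial genes were high in both, with 12 pan-endothelial markers summing to 10894 to 13209 CPM in Arterial and 8112 to 10142 CPM in Venous. Smooth muscle and pericyte markers (14 genes) summed to 135 to 333 CPM in Arterial and 93.8 to 126 CPM in Venous, fibroblast markers (10 genes) to 36.3 to 193 CPM and 145 to 287 CPM, and immune markers (14 genes) to 154 to 937 CPM and 142 to 1428 CPM. With cells holding markers of other types left out, 2370 genes were called in the comparison of the classes described below, 2147 of them among the 2466 called with all cells. Of the named genes, the immune genes Cd52 (-0.33, adjusted p = 0.648) and Lyz2 (0.21, adjusted p = 0.197) and the smooth muscle gene Tagln were then not past the threshold. Of the 54 venous cells of the male room air library at day 21, 51 lay in the top 8% of doublet scores of that library, against 17 of its 275 arterial cells, while 0 cells of either class there were called doublets. The same held for 26 of 153 venous against 5 of 395 arterial cells in the male day 1 library and for 16 of 70 against 4 of 342 in the female day 21 library of room air, and for 3 to 8 venous and 4 to 7 arterial cells in the other libraries. Without the male room air library of day 21 2166 genes were called in the comparison of the classes described below, 2064 of them among the 2466 called with it.

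Some cells of the Venous class of day 1 carried lymphatic markers. In the female library 15 of 165 venous cells (9.09%) and in the male library 18 of 153 (11.8%) carried UMIs of at least 3 of 7 lymphatic endothelial genes (Prox1, Mmrn1, Reln, Ccl21a, Pdpn, Thy1, Nts), against 0 venous cells at day 21. In the 18 male cells Mmrn1, a multimerin of lymphatic vessels, stood at 1735 CPM and was detected in 100% of them, and Ccl21a, the lymphatic homing chemokine, stood at 6739 CPM. In the other 135 venous cells of that library Mmrn1 stood at 3.68 CPM and Ccl21a at 0. Both genes were among the 7 that chose the cells, so these values describe the choice, whereas the next 3 genes were not used for it. Nr2f2 stood at 419 CPM in these male cells against 440 CPM in the others, and at 551 CPM against 366 CPM in the female library. Vwf stood at 13.4 CPM against 894 CPM in the male and at 0 against 1025 CPM in the female library, and the cells with lymphatic markers had no UMI of Slc6a2 in either. The annotation used no lymphatic class at day 1. The comparison of the ages was therefore repeated without these cells, an alternative added after they had been seen.

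In total, 10308 genes had enough UMIs to be tested over the 12 sums, with the library as a block. Arterial and Venous differed in 2466 genes (23.9%), of which 1153 (11.2%) were higher in Arterial and 1313 (12.7%) in Venous at an adjusted p under 0.05 (edgeR quasi-likelihood test, Benjamini-Hochberg). The authors formed the classes from the expression of these cells, so these p-values measure how well a difference repeats over the 6 libraries and are no independent evidence that the classes exist. Over 2-fold differences numbered 350 on the arterial and 477 on the venous side, and over 16-fold differences 13 and 52. The median over all genes was -0.0048 on the log2 scale. With the room air libraries alone 1635 genes were called. The day 1 libraries alone gave 2328 of 10400 genes (22.4%) and the day 21 libraries alone 2619 of 10124 (25.9%).

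**Figure D1:**
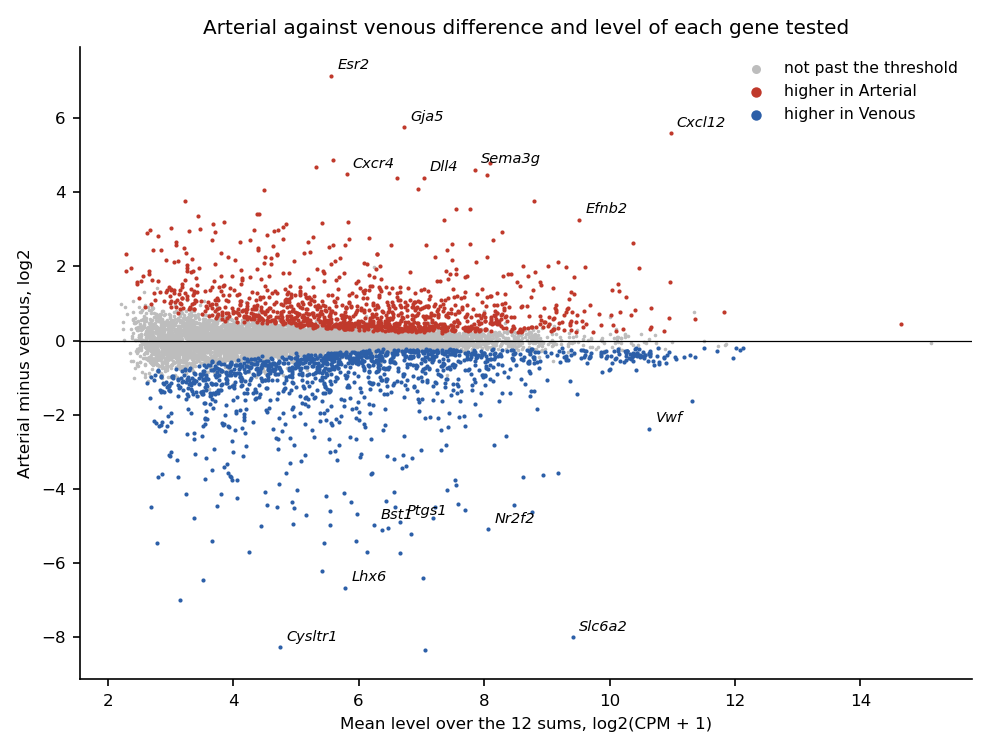
Each point is 1 of the 10308 genes tested; the horizontal axis is the mean level over the 12 sums as log2(CPM + 1) and the vertical axis the fitted arterial minus venous difference on the log2 scale, with named genes in italics. The 1153 genes higher in Arterial and the 1313 higher in Venous cover the whole range of levels, and the differences over 16-fold lie mostly on the venous side.

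Gja5, Cxcl12, Cxcr4 and Sema3g were among the 15 largest differences on the arterial side. In the order used above (day 1 female and male, day 21 room air female and male, hyperoxia female and male), Gja5 stood at 282, 312, 169, 137, 144 and 179 CPM in Arterial and at 0, 6.31, 3.80, 11.96, 3.49 and 2.73 CPM in Venous. Every arterial value was over every venous value, which held for 275 of all genes tested (2.67%; the reverse held for 251, or 2.44%), with a difference of 5.76 ± 0.32 (SE) on the log2 scale (adjusted p = 6.35e-08). Gja5 had its highest level in Arterial among the 28 annotated classes with at least 50 cells in all. Cxcl12 stood at 4457, 4456, 4010, 3403, 3426 and 3851 CPM in Arterial and at 28.6, 51.1, 124, 106, 111 and 104 CPM in Venous, a log2 difference of 5.59 ± 0.29. Cxcr4, the receptor of Cxcl12, was higher on the same side, at 64.3 to 155 CPM against 1.27 to 7.43 CPM (4.49 ± 0.17), so ligand and receptor were both higher in Arterial. Sema3g, a class 3 semaphorin, stood at 251 to 622 CPM in Arterial and 7.43 to 26.8 CPM in Venous (4.61 ± 0.12).

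Detection per cell followed the same order. Gja5 had a UMI in 36.0% to 54.4% of arterial cells and in 0 to 4.29% of venous cells. After each cell was thinned to 2000 UMIs, which left out 11, 7, 4, 0, 2 and 1 arterial cells, the arterial shares were 16.5% to 34.0% and the venous ones 0 to 1.85%. Neutrophils, which should lack the gene, showed 0 to 0.409% at median depths of 3410 to 5331 UMIs. The venous shares of Gja5 were thus low and rested on 0 to 10 UMIs per library. Neutrophils were shallower than the unthinned and deeper than the thinned venous cells. Whether the venous shares lay above that background was not tested.

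Of 17 Notch genes tested, 7 were higher in Arterial and 3 in Venous, with a median of 0.15, against 11.2% and 12.7% of all genes tested. Dll4, the arterial Notch ligand, stood at 206, 216, 262, 300, 255 and 256 CPM in Arterial and at 11.4, 7.57, 13.9, 8.54, 11.6 and 14.6 CPM in Venous. The difference of 4.40 ± 0.13 was similar at both ages (4.44 from the day 1 and 4.35 from the day 21 libraries). The Notch target Hey1 stood at 377 to 449 CPM against 14.9 to 63.2 CPM (3.54 ± 0.22). The receptor Notch1 (1.25 ± 0.07) and the ligand Jag2 (1.63 ± 0.12) were higher in Arterial by smaller amounts, with no overlap between the classes for either gene. Those on the venous side were Notch2, the ligand Dll1 and the fringe enzyme Lfng; they lie outside the rule for named genes and are named for the count.

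Of 31 transcription factors tested, 14 were higher in Arterial and 10 in Venous (median 0.24), against 11.2% and 12.7% of all genes. Sox17, an arterial Sox factor, stood at 388 to 775 CPM in Arterial and 101 to 179 CPM in Venous (1.78 ± 0.11). Prdm16, a zinc finger regulator, stood at 29.5 to 50.5 CPM against 1.71 to 6.37 CPM (2.85 ± 0.21). Nr2f2, the venous regulator, stood at 383, 437, 539, 731, 505 and 517 CPM in Venous and at 18.3, 12.6, 14.2, 23.0, 17.3 and 8.62 CPM in Arterial, a log2 difference of -5.09 ± 0.16 (adjusted p = 1.06e-09). Foxc1, a forkhead factor of vessel development, stood at 38.3 to 58.3 CPM in Venous and 0.761 to 3.53 CPM in Arterial (-4.50 ± 0.24). Lhx6, a LIM homeobox factor, stood at 84.9 to 135 CPM and at 0 to 3.15 CPM (-6.67 ± 0.34) and had its highest level of the 28 classes in Venous. The 3 venous factors each separated the classes in all 6 libraries.

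**Figure D2:**
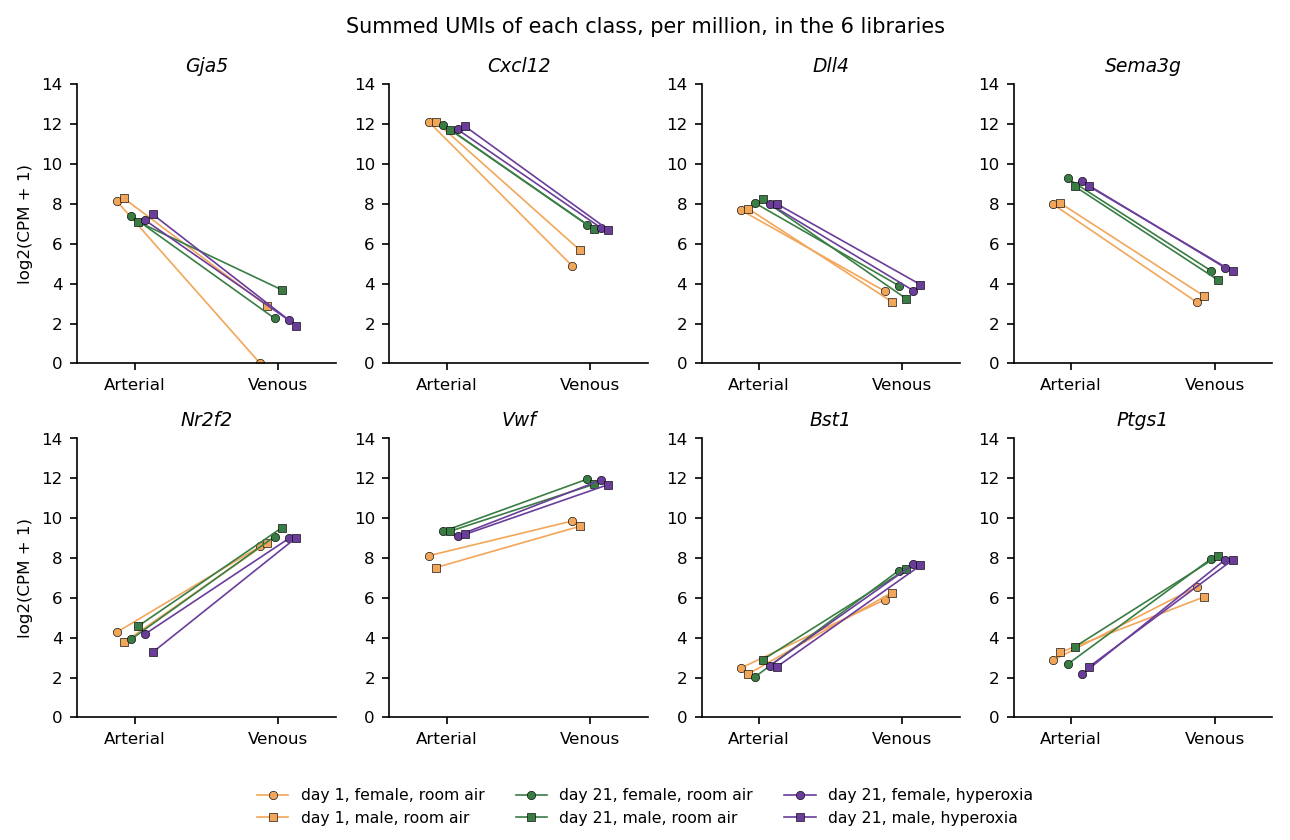
Each panel is 1 gene and each line 1 library, joining the Arterial and the Venous sum; the vertical axis is log2(CPM + 1), colour gives age and exposure and the marker shape the sex. Gja5, Cxcl12, Dll4 and Sema3g fall from Arterial to Venous and Nr2f2, Vwf, Bst1 and Ptgs1 rise in all 6 libraries, and Vwf and Ptgs1 in Venous are higher at day 21 than at day 1.

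Of 22 guidance genes tested, 11 were higher in Arterial, 3 in Venous and 8 in neither class (median 0.44), against 11.2% and 12.7% of all genes in Arterial and Venous. Efnb2, which encodes ephrin-B2, stood at 843, 722, 1785, 1543, 1593 and 1496 CPM in Arterial and at 104 to 163 CPM in Venous (3.26 ± 0.14). Ephb4, its receptor, stood at 224 to 415 CPM in Venous and 117 to 228 CPM in Arterial (-0.94 ± 0.08); venous exceeded arterial in 6 of 6 libraries although the ranges overlapped. Nrp2, a coreceptor for class 3 semaphorins and VEGF-C, stood at 122 to 280 CPM in Venous and 2.03 to 21.5 CPM in Arterial (-4.09 ± 0.30). Of 14 genes of VEGF and angiopoietin signalling, 3 were higher on each side (median -0.25): Vegfa and Esm1 (endocan) were arterial, at log2 differences of 2.60 ± 0.19 and 4.69 ± 0.41, and Vegfc, the growth factor of lymphatic vessels, was venous at -4.63 ± 0.55.

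Of 19 junction genes tested, 10 were higher in Arterial and 4 in Venous (median 0.34), against 11.2% and 12.7% of all genes. The tight junction genes Cldn5 (0.88 ± 0.08) and Ocln (1.12 ± 0.11) and the adherens junction gene Cdh5 (0.69 ± 0.07) differed by far less than Gja5. Of 23 genes of BMP and TGF-beta signalling, 8 were higher in Arterial and 11 in Venous (median -0.42). The ligands Bmp6 and Bmp2 lay on opposite sides: Bmp6 stood at 40.2 to 752 CPM in Arterial and 6.94 to 164 CPM in Venous (2.24 ± 0.11), and Bmp2 at 0.315 to 3.53 CPM and 8.87 to 41.0 CPM (-3.49 ± 0.33). The inhibitory Smad6 was arterial (1.71 ± 0.18) and the receptor Tgfbr2 venous (-0.95 ± 0.11), although in the day 1 libraries without the cells carrying lymphatic markers Tgfbr2 differed by -0.09 (adjusted p = 0.733). In the Wnt list 3 of 13 genes were higher on each side (median -0.00653). The secreted Wnt antagonists Wif1 (2.99 ± 0.46) and Sfrp1 (2.66 ± 0.47) were arterial, and the ligand Wnt9b and the Wnt agonist Rspo3 were venous: Wnt9b had 1 arterial against 128 venous UMIs, a ratio of CPM of 346 (95% counting interval 61.0 to 13766), and Rspo3 had 3 against 129, a ratio of 116 (38.9 to 571).

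Of 25 vasoactive genes tested, 13 were higher in Arterial and 9 in Venous (median 0.45), against 11.2% and 12.7% of all genes. Ace, which makes angiotensin II, stood at 629 to 1531 CPM in Arterial and 77.1 to 525 CPM in Venous (1.97 ± 0.18). Calcrl, the receptor for adrenomedullin and calcitonin gene-related peptide, was modestly arterial (0.76 ± 0.06). Its partners lay on opposite sides, with Ramp2 at 0.59 ± 0.07 and Ramp3 at -2.03 ± 0.21. Ptgs1, the cyclooxygenase of prostanoid synthesis, stood at 93.1, 65.02, 248, 273, 242 and 238 CPM in Venous and at 3.47 to 10.6 CPM in Arterial (-4.88 ± 0.29). Monoamine handling had 3 of 7 genes on the arterial and 2 on the venous side (median 0.14): the oxidase gene Maoa was arterial (1.30 ± 0.13), and the venous genes were Moxd1, a monooxygenase related to dopamine beta-hydroxylase (-5.70 ± 0.36), and Slc6a2, the noradrenaline transporter (-8.01 ± 0.53).

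Of 18 leukocyte adhesion genes tested, 8 were higher in Arterial and 9 in Venous (median -0.33), against 11.2% and 12.7% of all genes. Icam1, an integrin ligand, stood at 142 to 292 CPM in Venous and 41.9 to 54.3 CPM in Arterial (-2.08 ± 0.13). Selp, P-selectin, was low in both, at 2.86 to 71.0 CPM and 1.97 to 6.94 CPM (-2.23 ± 0.37). Ackr3, the scavenger receptor of Cxcl12, was venous, at 654 to 792 CPM against 42.6 to 75.8 CPM (-3.69 ± 0.12), opposite to Cxcl12 and Cxcr4. Of 17 coagulation genes tested, 12 were higher in Venous and 2 in Arterial (median -0.81), against 12.7% and 11.2% of all genes. Vwf, the platelet-binding von Willebrand factor, stood at 929, 769, 3959, 3325, 3857 and 3293 CPM in Venous and at 183 to 652 CPM in Arterial (-2.38 ± 0.12). Procr, the endothelial protein C receptor, was venous as well (-2.66 ± 0.17), as were the transglutaminase Tgm2 (-1.36 ± 0.09) and Anxa2, a plasminogen receptor subunit (-1.09 ± 0.07).

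Of 32 matrix genes tested, 12 were higher in Venous and 6 in Arterial (median -0.20), against 12.7% and 11.2% of all genes. Mmp2, a gelatinase, stood at 92.3 to 147 CPM in Venous and 1.52 to 11.6 CPM in Arterial (-4.36 ± 0.23). Sparcl1, a matricellular glycoprotein, was arterial (2.92 ± 0.16). Lipid genes split 8 to 6 of 18 (median -0.19), with the lipase Lpl (2.60 ± 0.20), its anchor Gpihbp1 (1.11 ± 0.11) and the fatty acid transporter Cd36 (1.18 ± 0.10) in Arterial and the fatty acid binding protein Fabp4 in Venous. Lpl, Gpihbp1, Kit (1.81 ± 0.13) and Tmem100 (1.95 ± 0.19) also mark general capillaries: 5 of 9 general capillary genes were higher in Arterial and 1 in Venous. That capillary list summed to 10320 to 11585 CPM in Arterial and 7343 to 8194 CPM in Venous at day 21, and capillary cells in the Arterial class were not tested for. Of 18 genes induced by tissue dissociation, 10 were higher in Venous and 1 in Arterial (median -0.37), against 12.7% and 11.2% of all genes, for example the immediate early genes Fos (-1.64 ± 0.23) and Egr1 (-1.30 ± 0.16). The list summed to 4012 to 6564 CPM in Arterial and 5210 to 7840 CPM in Venous, and handling and tissue state cannot be told apart here. Of 5 fibroblast genes tested, 4 were venous, including the collagen Col14a1 (-4.10 ± 0.48), while of 7 smooth muscle and pericyte genes 5 were arterial, such as Tagln (1.18 ± 0.19; 0.40, adjusted p = 0.290, with cells holding markers of other types left out).

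**Figure D3:**
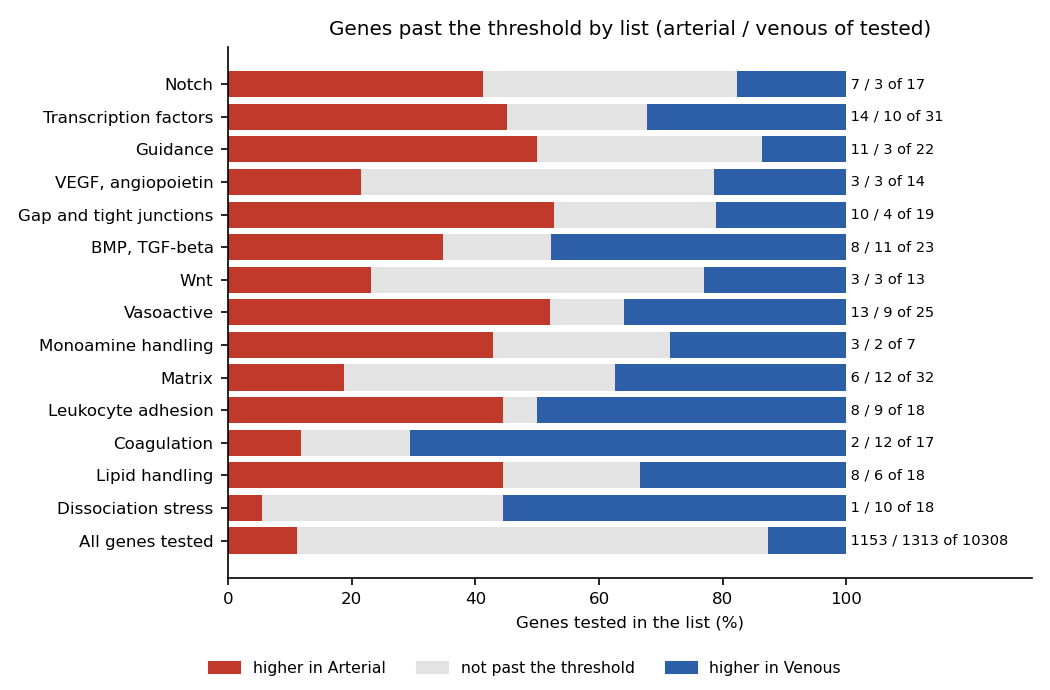
Each bar is 1 gene list and shows the percentage of its tested genes that were higher in Arterial (red), higher in Venous (blue) or not past the threshold (grey), with the counts at the right. Coagulation, with 2 arterial and 12 venous genes of 17, and guidance, with 11 and 3 of 22, are uneven in opposite directions, and the lowest bar gives all 10308 genes.

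Further large differences fell outside these lists. On the arterial side, Esr2, which encodes oestrogen receptor beta, had 1753 arterial and 3 venous UMIs, a ratio of CPM of 216 (95% counting interval 73.9 to 1050), and stood in Arterial at 15.5 and 12.6 CPM at day 1 and at 115 to 147 CPM at day 21. The polyamine transporter gene Atp13a3 stood at 331 to 753 CPM in Arterial and 8.54 to 46.1 CPM in Venous (4.80 ± 0.26). Hilpda, a lipid droplet protein induced by hypoxia, stood at 332 to 1151 CPM and 35.3 to 88.4 CPM (3.76 ± 0.15). The other genes of the arterial top 15 were Slc45a4, Pcsk5, Adam23, Depp1, Gpr21 and Abi3bp, at log2 differences of 3.56 to 4.88. On the venous side, Cysltr1, a receptor for cysteinyl leukotrienes, had 277 venous and 2 arterial UMIs, a ratio of 374 (103 to 3105), and a UMI in 10.9% to 44.4% of venous cells against 0 to 0.364% of arterial cells. The matrix metalloproteinase gene Mmp16 (-5.73 ± 0.34), the neurexin gene Nrxn3 (-5.70 ± 0.29) and the cyclic nucleotide phosphodiesterase Pde2a (-4.96 ± 0.19) stood with Slc6a2, Lhx6, Nr2f2, Ptgs1, Bst1, Zfpm2, Pgm5, Rnf165 and Ctnnal1 in the venous top 15. These genes were taken for their size of difference, and their values are a description.

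The arterial to venous difference changed with age in 570 genes (5.53%), tested as the difference of differences between day 21 and day 1 in room air. It was larger on the arterial side at day 21 in 181 genes (1.76%) and smaller, or more venous, in 389 (3.77%). With the cells carrying lymphatic markers left out the count was 531, with 481 genes shared, and in DESeq2 it was 248. It was 321 without the library block, 275 with equal numbers of cells, and 340, 310 and 353 without the male day 1, the female and the male room air day 21 library. Age is also the version of the counting software (Cell Ranger 6.0.0 at day 1 and 7.0.1 at day 21 per the file headers), and the 2 cannot be told apart. Of the 557 genes fitted at both ages, 228 had fitted values of opposite sign at the 2 ages, 139 with Venous and 89 with Arterial higher at day 21, with no test at either age. Among all genes, 1290 were called at both ages, 1215 of them with the same sign and 75 with opposite sign. The day 1 calls rest on 2 libraries.

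**Figure D4:**
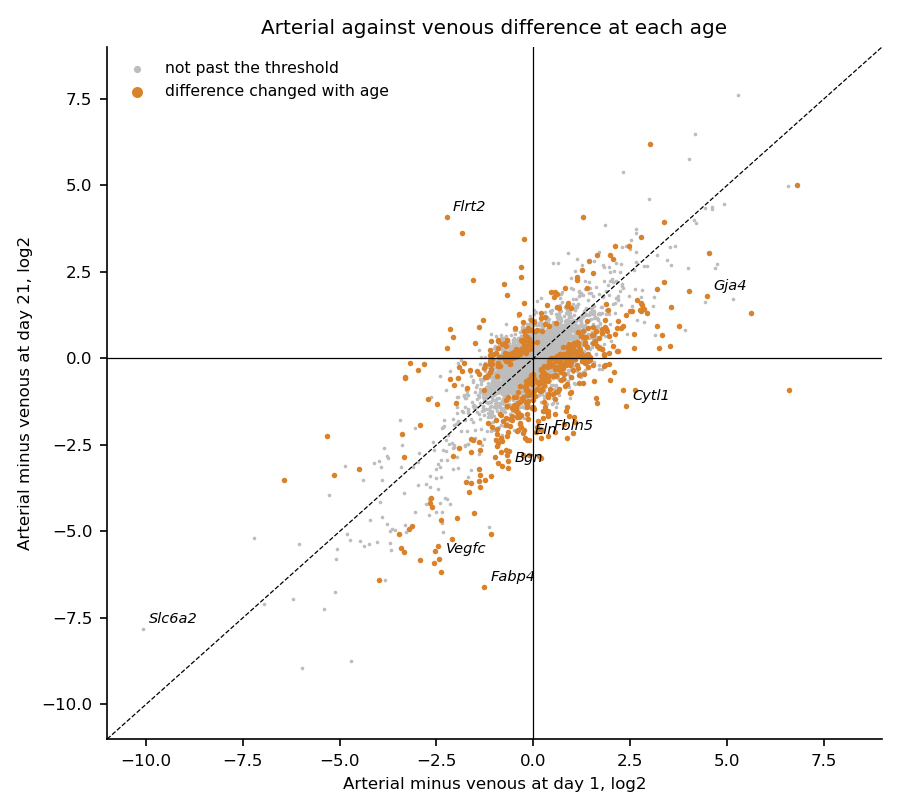
Each point is 1 gene; the axes give the arterial minus venous log2 difference fitted on the 2 day 1 libraries (horizontal) and on the 4 day 21 libraries (vertical), the dashed line marks equal differences, and orange points are genes whose difference changed with age at an adjusted p under 0.05. Fabp4 and Vegfc lie below the line on the venous side, Gja4 below it on the arterial side, and Flrt2, Fbln5 and Cytl1 on opposite sides at the 2 ages.

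Fabp4 had the smallest adjusted p. It stood at 214 and 180 CPM in Arterial at day 1 and at 8.19 and 15.8 CPM in room air and 3.78 and 4.82 CPM after hyperoxia at day 21. In Venous it stood at 461 and 483 CPM at day 1 and 539 to 837 CPM at day 21, so the arterial level was the one that differed most between the ages (-4.49 ± 0.20, adjusted p = 3.78e-16). With equal numbers of cells of each class the difference was -1.15 and its adjusted p 0.0905. The share of arterial cells with a UMI went from 9.61% and 11.6% at day 1 to 0.364% to 1.75%, while neutrophils showed 0.475% to 1.43%.

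The elastic fibre genes Fbln5 and Eln moved towards Venous. Fbln5, a fibulin that binds elastin and a member of the arterial marker list, stood at 757 and 667 CPM in Arterial and at 639 and 458 CPM in Venous at day 1. At day 21 it stood at 94.8 to 126 CPM in Arterial and at 484 to 572 CPM in Venous, so it was higher in Arterial at day 1 and in Venous at day 21 (-2.83 ± 0.15, adjusted p = 2.90e-14). Eln, elastin, stood at 1703 to 1932 CPM in Arterial and 1759 to 2171 CPM in Venous at day 1, and at 839 to 1039 CPM and 3568 to 5578 CPM at day 21 (-2.09 ± 0.12, adjusted p = 8.95e-14). The proteoglycan Bgn followed (-2.35 ± 0.17), with Venous at 179 and 168 CPM at day 1 and 397 to 472 CPM at day 21. Of the 32 matrix genes, 8 moved to Venous with age and 5 to Arterial, against 3.77% and 1.76% of all genes tested; without the cells carrying lymphatic markers 9 and 4 did, and with the female day 21 library of room air left out 7 and 3. Without those cells the differences of differences were -4.65 for Fabp4, -2.78 for Fbln5, -1.95 for Eln and -2.24 for Bgn.

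Of 12 venous markers tested, 7 moved to Venous and 0 to Arterial at day 21, against 3.77% and 1.76% of all genes tested. The count was 6 without the cells carrying lymphatic markers, 3 of 11 with equal numbers of cells, 4 without the female day 1 library and 3 with the female day 21 library of room air left out. Vcam1, an adhesion molecule, was among the 7 and stood on the arterial side at day 1 in the fit of those libraries (0.80, adjusted p = 0.223) and on the venous side at day 21 (-1.89). Vegfc stood at 386 and 302 CPM in Venous at day 1 and 875 to 1292 CPM at day 21, while Arterial went from 56.8 and 73.2 CPM to 7.35 to 30.2 CPM (-3.14 ± 0.25, adjusted p = 4.78e-10; -2.99 without the cells with lymphatic markers). Vwf moved to Venous by less (-0.57 ± 0.14, adjusted p = 0.00726), and without the cells with lymphatic markers its adjusted p was 0.0860, without the female day 1 library 0.265 and with the female day 21 library of room air left out 0.150. Slc6a2 stood at 81.1 and 40.4 CPM in Venous at day 1 and at 2356, 1782, 1924 and 1925 CPM at day 21, with a UMI in 29.1% and 15.7% of venous cells at day 1 and 91.6% to 97.1% at day 21. After thinning, the shares were 12.2% and 8.05% at day 1 and 87.8% to 95.7% at day 21. Its difference of differences did not pass the threshold (3.33 ± 1.87, adjusted p = 0.424); Arterial had 0 UMIs at day 1, so the fitted value there depends on the prior count.

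Of 11 arterial markers tested, 6 moved to Venous and 1 to Arterial, the same counts as without the cells carrying lymphatic markers. Among the 6, Fbln5 and the secreted protease Htra1 (1.98 at day 1 and -0.63 at day 21) changed sides, and Gja4, Cxcl12, Hey1 and the kinase Bmx had a smaller arterial excess at day 21. Bmx (-1.12) passed the threshold in 5 of 17 fits, and its adjusted p reached 0.398 without the female day 1 library. Gja4, connexin 37, stood at 748 and 937 CPM in Arterial at day 1 and at 282 to 366 CPM at day 21, and in Venous at 32.6 and 41.7 CPM and then 66.4 to 101 CPM (-2.77 ± 0.23, adjusted p = 5.16e-10; -3.61 without the cells with lymphatic markers). Cxcl12 (-1.80 ± 0.22) and Hey1 (-1.56 ± 0.27) had higher venous levels at day 21. Efnb2 was the member that widened (0.87 ± 0.17, adjusted p = 0.00101). In the VEGF and angiopoietin list 6 of 14 genes moved to Arterial and 1, Vegfc, to Venous, among them Vegfa (1.56 ± 0.25); without the cells carrying lymphatic markers 3 and 1 did. In the leukocyte adhesion list 8 of 18 moved to Venous and 0 to Arterial, against 3.77% and 1.76% of all genes tested. That count was 7 without the cells carrying lymphatic markers, 4 of 15 with equal numbers of cells, 5 without either day 1 library and 4 without the male day 21 library of room air; Icam1 passed in 8 and Vcam1 in 10 of 17 fits.

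Flrt2, a guidance protein of the fibronectin leucine-rich transmembrane family, changed sides the other way. It stood at 7.76 and 5.51 CPM in Arterial and 37.7 and 24.6 CPM in Venous at day 1, and at 178 to 206 CPM and 6.83 to 13.9 CPM at day 21 (6.46 ± 0.37, adjusted p = 1.20e-13; 5.71 without the cells with lymphatic markers). Cytl1, a secreted cytokine-like protein, went from Arterial to Venous: 52.5 and 59.0 CPM against 13.1 and 7.57 CPM at day 1, and 52.7 to 89.2 CPM against 114 to 220 CPM at day 21 (-3.9997 ± 0.30, adjusted p = 1.01e-10; -3.85 without the cells with lymphatic markers). In Flrt2 it was mostly the arterial and in Cytl1 the venous level that differed between the ages.

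**Figure D5:**
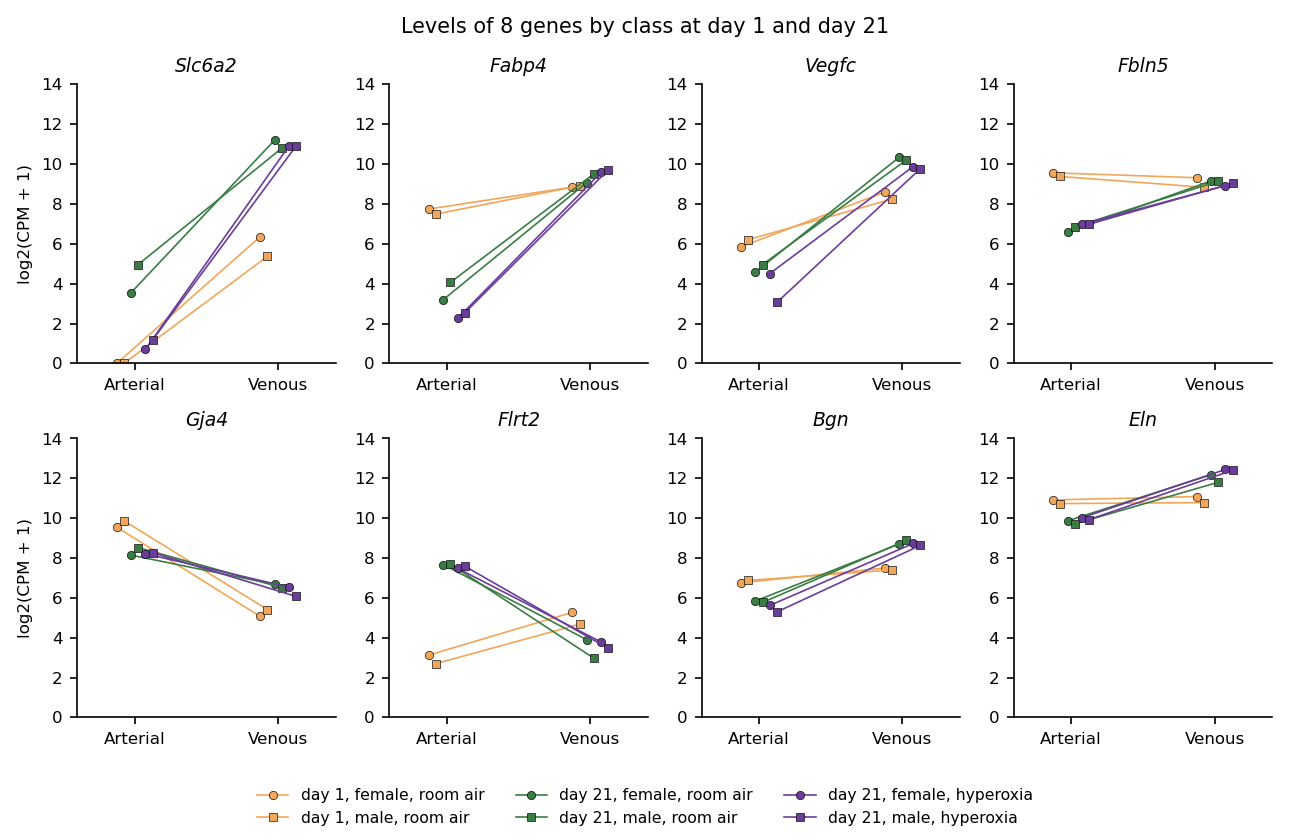
Each panel is 1 gene and each line 1 library, joining the Arterial and the Venous sum, with log2(CPM + 1) on the vertical axis, colour for age and exposure and marker shape for sex. The day 1 lines (orange) slope differently from the 4 day 21 lines, as for Flrt2, which falls from Arterial to Venous at day 21 and rises at day 1.

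After hyperoxia the arterial to venous difference at day 21 differed from that in room air in 15 genes (0.146%), 3 (0.0291%) with a larger and 12 (0.116%) with a smaller arterial minus venous value. DESeq2 called 2, the fit without the library block 0, equal numbers of cells 2, and 27, 9, 3, 9 and 4 were called without the female day 1, the female hyperoxia, the female day 21 room air, the male hyperoxia and the male day 21 room air library in turn; 610 genes had an unadjusted p under 0.05 in the edgeR fit. The 610 genes were slightly over the share of 0.05 of the 10308 tested that is expected with no difference. No arterial marker was called, and 1 venous marker, Slc6a2, was. S100a8, a calcium-binding protein abundant in neutrophils, stood at 21.5 and 23.9 CPM in Venous in room air and at 275 and 428 CPM after hyperoxia, and in Arterial at 58.6 and 23.0 CPM and then 93.7 and 69.0 CPM (-3.07 ± 0.37, adjusted p = 3.08e-05). S100a9 moved with it (-2.83 ± 0.40, adjusted p = 0.000287). The 14 immune markers summed to 142 to 393 CPM in Venous in room air and to 920 to 1428 CPM after hyperoxia at day 21, against 154 to 283 CPM and 285 to 350 CPM in Arterial, and with cells holding markers of other types left out the difference of S100a8 was -0.40 and that of S100a9 -0.10, neither past the threshold. In the edgeR fit with doublets left out they were -1.55 for S100a8 and -1.41 for S100a9 (adjusted p = 0.906 for each). With the female day 21 library of room air left out, the adjusted p was 0.434 for S100a8 and 0.678 for S100a9.

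Of the other named genes, Slc6a2 (-4.12 ± 0.55, adjusted p = 0.000219) stood at 1782 to 2356 CPM in all Venous sums of day 21 and at 10.7 and 30.2 CPM in Arterial in room air against 0.631 and 1.27 CPM after hyperoxia, where 0.529% and 0.792% of arterial cells had a UMI. The difference of Slc6a2 was -4.14 without the library block (adjusted p = 0.108) and -3.78 with cells holding markers of other types left out (adjusted p = 0.282). Asprv1, a protease, stood at 0 and 1.71 CPM in Venous in room air and at 10.5 and 22.7 CPM after hyperoxia, and at 1.26 to 6.39 CPM in Arterial at day 21. The venous levels were 0 and 1 UMIs in room air and 9 and 25 after hyperoxia. Asprv1 had enough UMIs in 12 of 17 fits and passed the threshold in 7, and not in DESeq2 (-6.02, adjusted p = 0.99957). Neutrophils of day 21 held it at 795 to 961 CPM, and their part in its difference was not tested. H2-Ab1, an antigen-presenting class II gene, stood at 38.7 and 133 CPM in Arterial in room air and 14.5 and 16.5 CPM after hyperoxia, with Venous at 27.9 and 87.1 CPM and 52.4 and 29.1 CPM (-1.90 ± 0.33, adjusted p = 0.00667). H2-Ab1 passed the threshold in 10 of 17 fits, and not in the edgeR fit on sums thinned to equal depth (-1.80, adjusted p = 0.141). Without the female hyperoxia library its difference was -1.38. Celf2, an RNA-binding protein, moved the other way (1.69 ± 0.30, adjusted p = 0.00667), with Venous at 167 and 92.3 CPM in room air and 51.2 and 65.5 CPM after hyperoxia. Neutrophils of day 21 held Celf2 at 802 to 945 CPM, and their part in its difference was not tested. Celf2 passed the threshold in 9 of 17 fits, and not in the edgeR fit on sums thinned to equal depth (1.57, adjusted p = 0.461). Fabp4 was called here too (-1.77 ± 0.32, adjusted p = 0.00858). That call rested on 26 and 37 arterial UMIs in room air and 12 and 19 after hyperoxia. Few arterial cells of day 21 had a UMI of Fabp4, as given above. Under the alternatives, the 6 genes chosen by rule kept the call in 56 fitted values and lost it in 35.

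Between males and females the arterial to venous difference differed in 8 genes (0.0776%), 5 (0.0485%) larger in males and 3 (0.0291%) smaller. DESeq2 and the fit without the library block called 0, as did edgeR without the female or without the male room air library of day 21 and with sums thinned to equal depth, while 447 genes had an unadjusted p under 0.05. The 447 genes were under the share of 0.05 of the 10308 tested that is expected with no difference. The named genes were Retnlg (-2.53 ± 0.37) and S100a9 (-1.04 ± 0.16), which are neutrophil genes, the platelet chemokine Pf4 (4.11 ± 0.70), Igfbp5, which binds insulin-like growth factors (-0.95 ± 0.17), Slc6a2 (1.78 ± 0.32) and Depp1 (2.05 ± 0.37). Igfbp5 stood at 501, 134 and 128 CPM in the female and at 523, 147 and 242 CPM in the male Venous sums, and at 151, 38.4 and 33.1 CPM and 102, 19.2 and 22.8 CPM in Arterial. Male values were over female ones in Venous and under them in Arterial for each of the 3 pairs of libraries. Igfbp5 was named for its adjusted p on these same sums, so this order describes the choice and is no separate evidence. With cells holding markers of other types left out the difference of Igfbp5 was -0.26 (adjusted p = 0.981, edgeR). In that setting it was 2.60 for Pf4 (adjusted p = 0.848) and 0.0089 for S100a9. The difference of Depp1 was 1.16 without the female hyperoxia library. No named marker of either class other than Slc6a2 was called. In the order used for Igfbp5, Arterial held 0, 34 and 2 UMIs of Slc6a2 in the female and 0, 71 and 5 in the male sums. Under the alternatives these 6 genes kept the call in 48 fitted values, lost it in 39 and reversed in 2.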

How the data were processed

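Single-cell RNA of 6 mouse lung libraries was analysed. The deposited matrices hold UMI counts per gene and barcode, made by the authors with Cell Ranger (6.0.0 at day 1 and 7.0.1 at day 21, per the file headers); the submitters' processing notes name Cell Ranger 6.0.0, Seurat 4.1.1 and mm10. Whether intronic reads were counted and how the cells were clustered is not given in the sources used here. Class names came from the authors' deposited metadata.

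UMIs were summed per library and class (12 sums of 585272 to 3943133 UMIs). edgeR 4.0.16 (filterByExpr, TMM, quasi-likelihood test, library as block) gave log2 differences, with Benjamini-Hochberg adjustment over the 10308 genes tested of 32285, called under 0.05. Each SE was derived as the absolute log2 difference divided by the square root of the F statistic of that test. Residual degrees of freedom were 5 for the classes, 3 for age and hyperoxia and 2 for sex; p-values measure the spread between these pools only. On simulated data, changes of 2-fold were set in 100 genes, taken only from genes above a minimum mean level. The simulated level of a gene was otherwise the same in all sums. These changes were recovered for 100% of the 100 genes between the classes, 59% for age, 56% for hyperoxia and 75% for sex. Genes of low level are not covered by these shares. Doublets were scored with Scrublet (scanpy 1.11.5) over all barcodes of a library, left in for the main values and out in an alternative; it called 1.41% to 11.1% of annotated cells. The libraries shared 9 to 37 barcodes per pair, 1 of them among these classes.

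Genes were named by rule: the 15 largest differences per side with the same sign in all libraries and at least 20 UMIs in each library of the higher class, up to 4 called genes per list, all class markers, and the 6 smallest adjusted p-values for age, hyperoxia and sex. Some genes that the rule names are not reported here. The members and lists were chosen with earlier results of these data known. The comparison pairs classes of the same library because they come from the same pool of mice. The tried alternatives comprised upper-quartile scaling, the DESeq2 1.42.0 test, fits without a filter, without the block, equal cells, thinned sums, cells with markers of other types left out, subsets of libraries and each library left out.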

Additional observations from a re-analysis of the deposited data

Results flagged for a closer look

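The arterial to venous difference was not the same at the 2 ages: 570 genes differed by the test of the difference of differences, at log2 values of -4.49 for Fabp4, -2.83 for Fbln5, -2.09 for Eln, -2.35 for Bgn, -3.9997 for Cytl1 and 6.46 for Flrt2, where a negative value is a shift towards Venous at day 21. Of these, Fbln5, Flrt2 and Cytl1 were higher on opposite sides at the 2 ages, and the same held with the cells carrying lymphatic markers left out. The difference also differed between hyperoxia and room air in 15 genes, by -3.07 for S100a8, -4.12 for Slc6a2, -2.83 for S100a9, -5.90 for Asprv1, 1.69 for Celf2 and -1.90 for H2-Ab1. The value for Asprv1 rested on 0 and 1 venous UMIs in room air at day 21, and it passed the threshold in 7 of 12 fits. S100a8, S100a9, Asprv1 and Celf2 are also high in the neutrophils of these libraries. At day 21 Asprv1 stood there at 795 to 961 CPM and Celf2 at 802 to 945 CPM. Celf2 moved towards Arterial and S100a8, S100a9 and Asprv1 towards Venous, and the part of neutrophils was not tested. The arterial to venous difference differed between males and females in 8 genes, by -2.53 for Retnlg, -1.04 for S100a9, 4.11 for Pf4, -0.95 for Igfbp5, 2.05 for Depp1 and 1.78 for Slc6a2.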

How the results depend on the processing

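Of the fitted values of the 122 named genes under the alternatives, 2739 kept direction and call, 114 were called in neither fit at the same sign and 10 in neither at the other sign, 255 lost the call, 31 gained one and 17 reversed. The count of genes differing between the classes was 2466 and fell to 1635 with room air libraries alone; each library left out gave 2037 to 2312. The count for age, 570, was 248 with DESeq2 and 275 with equal cells, and 310 to 542 with a library left out. The count for hyperoxia, 15, was 2 with DESeq2, 51 without a filter, 2 with equal cells, 5 with thinned sums and 7 with cells holding markers of other types left out, and 3 to 27 with a library left out. The count for sex, 8, was 0 with DESeq2, 26 without a filter, 17 without doublets, 0 with thinned sums and 2 without cells with markers of other types, and 0 to 25 with a library left out. The log2 ratio of median UMIs, 0.44, was 0.40 to 0.49 with a library left out, where 5 pairs cannot reach the threshold. The cause of these changes was not tested.

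Without the replicate block, that is without pairing by library, 2471 genes differed between the classes, 321 with age, 0 with hyperoxia (427 at an unadjusted p under 0.05) and 0 with sex (294). For DESeq2 and sex 31 genes had an unadjusted p under 0.05, and with thinned sums 385. All these counts at an unadjusted p were under the share of 0.05 of the genes tested that is expected with no difference.

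Reversed values between the classes on day 1 libraries alone were 1.05 for Asprv1, 2.39 for Cytl1 (2.22 with the cells carrying lymphatic markers also left out), 0.37 for Fbln5 (0.30), -2.24 for Flrt2 (-1.48) and 0.80 for Vcam1 (0.64); on day 21 libraries -0.63 for Htra1; in room air 1.25 for Asprv1; and without cells with markers of other types 0.21 for Lyz2. For age they were 0.065 for Cpe and 0.13 for Mmp16 with equal cells and -0.19 for S100a8 without cells with markers of other types; for sex 0.0089 for S100a9 in that setting and -0.74 for Slc6a2 with equal cells. There was 1 library per condition, so age, exposure and sex rest on few pools, and the folds of genes near 0 in 1 class are imprecise at this depth.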
